A study of Homo sapiens with 7 samples.

Results

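Kinesins are motor proteins that walk along microtubules, or take microtubules apart, with energy from ATP. The family was taken from the deposited count table as every row whose symbol reads KIF, a number and at most a letter and a digit, plus KIFC1, KIFC2 and KIFC3. This found 42 genes among 60591 rows. Of these, 12 act mainly in cell division and are called mitotic kinesins here. The other 30 are called transport kinesins, a working name for the rest of the family, which also holds KIF2A, KIF24 and other motors that shape microtubules without carrying cargo. KIF4B, a copy of the mitotic KIF4A, and KIF2B, a spindle motor, are in that group too.

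The cells were TE11, a human line labelled as esophageal squamous cell carcinoma, grown in medium with 10% fetal bovine serum. The vehicle group had 3 libraries from cells given 0.07% DMSO, the solvent, and the diclofenac group had 4 libraries from cells given 200 µM diclofenac, a painkiller that blocks the cyclooxygenases and so the making of prostaglandins. Both treatments lasted 48 h, and the comparison asks how kinesin transcripts differed after the drug. The labels name 1 cell line and do not say whether the libraries came from separate cultures, so the p-values measure the spread between these libraries, which may be technical.

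Mitotic kinesins push the spindle poles apart, hold and align chromosomes, trim microtubule ends and build the midzone between separating chromosomes, where the cell later divides. Their messages are made mostly in G2 and mitosis and are held down in resting cells by the DREAM complex, which binds a short promoter word called the CHR. Transport kinesins carry vesicles, mitochondria, endosomes and RNA toward the cell edge, or move material along cilia, and several of them are known mainly from neurons. In bulk RNA, fewer cells in a phase of the cycle and less RNA per cell cannot be told apart.

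Total counts ran from 19878696 to 26490829 per library, and the kinesins together held 53882 to 69920 of them. The family took 0.260% ± 0.00545 (SD, n = 3) of the counts under vehicle and 0.267% ± 0.00310 (SD, n = 4) under diclofenac. Of 15 squamous markers, 1 (DSC3) reached 1 CPM (counts scaled to a common library total) in every library and 4 had no count in any. KRT5 had 0 counts in the vehicle libraries together and 1 in the diclofenac libraries, and TP63 had 2 and 5, so the defining squamous markers were near absent. Of general epithelial markers 4 of 5, of mesenchymal markers 3 of 8, of neuronal markers 4 of 8, of ciliated cell markers 3 of 8 and of blood markers 0 of 4 reached 1 CPM in every library.

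Counts were tested with edgeR's quasi-likelihood test over all genes with enough reads, and genes with an adjusted p (Benjamini-Hochberg) under 0.05 are called. Levels are normalized CPM, which scale each library by its total corrected with TMM factors, on the assumption that most genes do not change. Of the 42 kinesins, 40 were tested. KIF2B, a spindle motor best known from testis, had no count in any library. KIF19, which shortens motile cilia in the mouse, had 5 counts in each group and was not tested. Of the 40 tested kinesins, 25 were called, or 62.5%, against 59.7% of all 18311 tested genes. A kinesin was therefore called about as often as any other gene. With 59.7% of genes called, it is open to question that most genes did not change, and other scalings are given below. What follows is which members moved, in which direction and by how much.

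The promoters show what the mitotic kinesins share in sequence. RefSeq promoters (GRCh38.p14, from 250 bases before to 50 after the gene's start) were matched by symbol for 34 of the 42 members, all 12 mitotic and 22 transport kinesins. The CHR was searched as TTTGAA or TTCGAA and the CCAAT box, the site of the factor NF-Y, as CCAAT, each on both strands. Below are 160 bases of 8 promoters, from 130 before to 30 after the start, 5′ to 3′ on the gene's strand. Capitals mark the CHR and CCAAT words in either orientation. KIF22 and KIFC1 are shown as mitotic kinesins that fell, KIF15 and KIF18A as the pair that rose, KIF4A and KIF4B as near copies, KIF20A as a mitotic kinesin with no CHR word, and KIF1C as the transport kinesin with the smallest p.
KIF22, chr16:29790621-29790780, plus strand: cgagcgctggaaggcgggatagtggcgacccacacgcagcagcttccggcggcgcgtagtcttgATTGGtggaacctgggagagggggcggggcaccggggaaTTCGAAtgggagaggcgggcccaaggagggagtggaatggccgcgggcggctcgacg
KIFC1, chr6:33391693-33391852, plus strand: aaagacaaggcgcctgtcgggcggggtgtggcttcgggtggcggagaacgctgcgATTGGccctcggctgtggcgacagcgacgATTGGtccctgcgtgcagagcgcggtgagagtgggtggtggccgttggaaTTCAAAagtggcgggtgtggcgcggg
KIF15, chr3:44761664-44761823, plus strand: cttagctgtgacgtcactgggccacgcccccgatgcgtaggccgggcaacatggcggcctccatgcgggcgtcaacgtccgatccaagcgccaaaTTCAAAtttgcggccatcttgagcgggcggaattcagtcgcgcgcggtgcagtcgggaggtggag
KIF18A, chr11:28108127-28108286, minus strand: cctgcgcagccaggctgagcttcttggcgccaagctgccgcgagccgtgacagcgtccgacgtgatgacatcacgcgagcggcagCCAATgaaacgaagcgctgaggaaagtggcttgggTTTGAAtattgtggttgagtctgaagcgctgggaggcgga
KIF4A, chrX:70289974-70290133, plus strand: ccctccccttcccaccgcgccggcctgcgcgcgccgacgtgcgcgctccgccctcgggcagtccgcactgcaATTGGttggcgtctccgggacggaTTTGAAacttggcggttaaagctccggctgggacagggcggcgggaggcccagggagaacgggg
KIF4B, chr5:155013625-155013784, plus strand: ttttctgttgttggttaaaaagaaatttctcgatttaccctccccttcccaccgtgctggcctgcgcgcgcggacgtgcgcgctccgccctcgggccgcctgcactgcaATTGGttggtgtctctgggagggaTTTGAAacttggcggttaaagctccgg
KIF20A, chr5:138178982-138179141, plus strand: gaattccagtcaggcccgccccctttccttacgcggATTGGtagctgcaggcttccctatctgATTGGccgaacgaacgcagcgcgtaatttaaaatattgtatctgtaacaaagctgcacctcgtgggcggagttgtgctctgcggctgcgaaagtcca
KIF1C, chr17:4997820-4997979, plus strand: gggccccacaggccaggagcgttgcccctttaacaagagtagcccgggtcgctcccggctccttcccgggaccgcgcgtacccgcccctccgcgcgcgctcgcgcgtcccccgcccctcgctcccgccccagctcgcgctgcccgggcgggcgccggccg

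A CHR word lay in 10 of 12 mitotic promoters (83.3%), in 3 of 22 transport promoters (13.6%) and in 16.6% of all 27305 promoters in the table. Within 50 bases of the start it lay in 9 of 12 mitotic promoters, 2 of 22 transport promoters and 5.05% of all. A CCAAT word lay in 10 of 12 mitotic promoters, in 7 of 22 transport promoters and in 35.7% of all, and both words together in 9, in 3 and in 6.58% of all. The mitotic promoters without a CHR word were those of KIF2C and KIF20A. Both carried TTTAAA, at 3 and 41 bases before the start, a word searched only after these sequences had been seen, which lies in 12.4% of all promoters. An E2F word (TTTGGCGC, TTTCGCGC, TTTCCCGC or TTTGGCGG, both strands) lay in 2 mitotic and 2 transport promoters and in 3.43% of all. KIF4B, a copy of KIF4A without introns, matched the KIF4A promoter at 93.8% of 144 aligned bases, and the aligned stretch held both words. The third transport promoter with a CHR word beside those of KIF4B and KIF5B was that of KIF24. A word match is a description of these letters and says nothing of binding in these cells.

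Among the mitotic kinesins, diclofenac was followed by small falls in 7, a rise in 2 and no call in 3. The count of rises was 1 when vehicle replicate 1 or 3 or diclofenac replicate 2 or 4 was left out. KIF20A fell by 27.8%, KIFC1 by 21.0% and KIF22 by 20.9%. The median log2 fold change of the 12 was -0.23, against 0.02 over all tested genes, and 29.5% of all tested genes were called lower and 30.2% higher. In 8 of the 12 every diclofenac library lay below every vehicle library, and in 1 above. Over all tested genes the groups did not overlap in 58.5%.

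**Figure D1:**
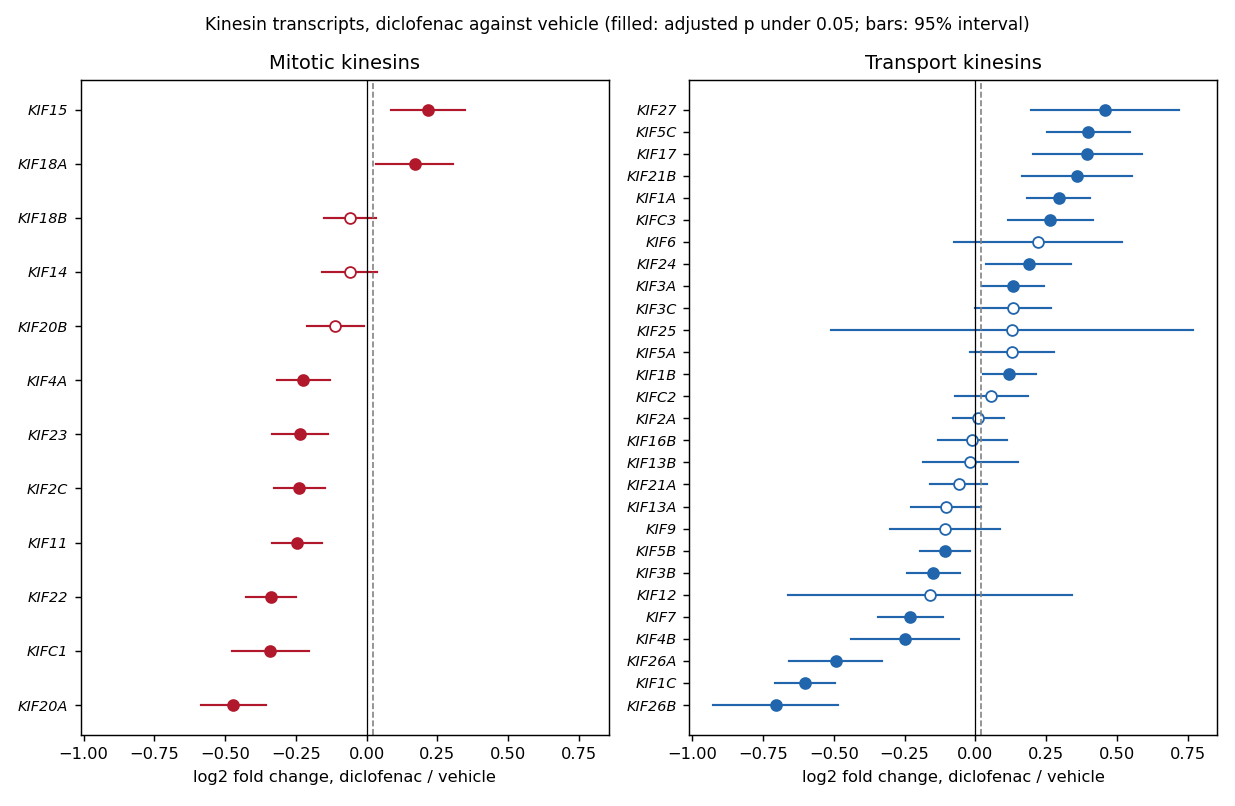
Log2 fold change of the 40 tested kinesins, diclofenac over vehicle, with 95% intervals from edgeR (mitotic in red, transport in blue; filled points passed adjusted p under 0.05; the dashed line is the median of all tested genes). The mitotic points lie between -0.47 (KIF20A) and 0.22 (KIF15), with 7 filled points to the left, and the transport points spread from -0.71 (KIF26B) to 0.46 (KIF27).

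The kinesins of the midzone and of cytokinesis were led by KIF20A, which carries the chromosomal passenger complex to the midzone. KIF20A stood at 79.0, 85.3 and 83.3 normalized CPM in the vehicle libraries and at 59.5, 64.6, 54.4 and 59.6 in the diclofenac libraries. The groups were well apart, and the log2 fold change was -0.47 (SE 0.0541, edgeR adjusted p = 8e-07). KIF23, the motor of the centralspindlin complex, read 120, 121 and 124 normalized CPM under vehicle and 101, 97.1, 108 and 107 under diclofenac. All 4 treated libraries were lower, with a log2 fold change of -0.24 (SE 0.0465, edgeR adjusted p = 0.000288). KIF4A, which limits the length of midzone microtubules together with PRC1, read 150, 155 and 148 under vehicle and 127, 126, 138 and 126 under diclofenac (normalized CPM). Its diclofenac replicate 3 was the highest of the treated libraries and still below every control, and the log2 fold change was -0.22 (SE 0.0450, edgeR adjusted p = 0.000352).

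The other cytokinesis motors were not called. KIF20B, needed late in cell separation, read 115, 122 and 125 normalized CPM under vehicle and 108, 107, 115 and 117 under diclofenac. These groups overlapped, and the log2 fold change was -0.11 (95% interval -0.21 to -0.01, edgeR adjusted p = 0.0561). KIF14, which binds citron kinase and PRC1 at the midbody, read 78.8, 71.9 and 78.1 under vehicle and 74.8, 72.5, 70.9 and 74.6 under diclofenac, again with overlap. Its log2 fold change was -0.06 (95% interval -0.16 to 0.04, edgeR adjusted p = 0.278).

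KIF22 and KIFC1 both lost about the same share. KIF22, the chromokinesin that pushes chromosome arms away from the poles, read 196, 196 and 191 normalized CPM under vehicle and 156, 149, 157 and 153 under diclofenac. KIFC1, which slides toward minus ends and gathers extra centrosomes into a pair of poles in cancer cells, read 20.2, 19.95 and 20.2 under vehicle and 15.7, 15.6, 15.1 and 17.3 under diclofenac. In each the treated libraries were all lower. The log2 fold change was -0.34 for KIF22 (SE 0.0418, edgeR adjusted p = 1.87e-06) and -0.34 for KIFC1 (SE 0.0649, edgeR adjusted p = 0.000205).

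The 2 motors that keep the poles apart went opposite ways. KIF11, also called Eg5, drives pole separation and is the target of several mitotic inhibitors. It read 234, 226 and 240 normalized CPM under vehicle and 199, 196, 194 and 198 under diclofenac, a log2 fold change of -0.25 (SE 0.0424, edgeR adjusted p = 7.89e-05). KIF15 can hold the spindle bipolar when KIF11 is blocked. It read 33.1, 30.1 and 28.4 under vehicle and 33.3, 34.6, 36.0 and 38.2 under diclofenac (normalized CPM), a log2 fold change of 0.22 (SE 0.0626, edgeR adjusted p = 0.00617). Vehicle replicate 1 and diclofenac replicate 1 of KIF15 nearly touched, and without vehicle replicate 3 its adjusted p was 0.0578.

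The motors that act on microtubule ends also differed from each other. KIF2C, or MCAK, takes tubulin off microtubule ends and corrects wrong attachments to chromosomes. It read 122, 130 and 126 normalized CPM under vehicle and 110, 107, 107 and 105 under diclofenac, a log2 fold change of -0.24 (SE 0.0427, edgeR adjusted p = 0.000113). KIF18B, which works with KIF2C on the astral microtubules, read 85.4, 84.5 and 84.7 under vehicle and 77.8, 81.9, 82.3 and 83.8 under diclofenac. Its treated libraries were all below the controls, yet the change was small and not called (log2 fold change -0.06, edgeR adjusted p = 0.254). KIF18A damps the swinging of chromosomes at the spindle equator, and read 27.2, 31.3 and 30.5 under vehicle and 30.4, 34.6, 32.7 and 35.5 under diclofenac. Its groups overlapped, and the log2 fold change of 0.17 was called (SE 0.0644, edgeR adjusted p = 0.03).

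**Figure D2:**
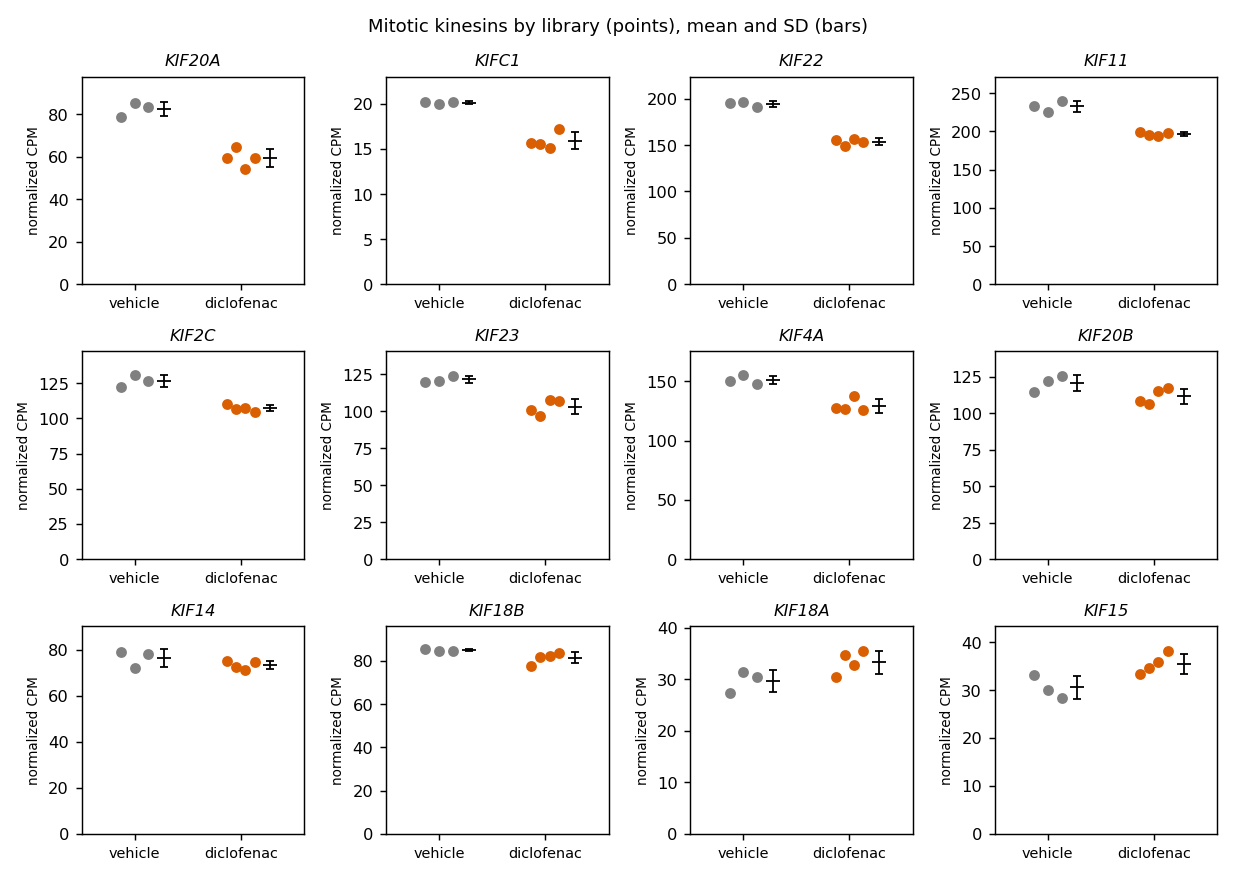
Normalized CPM (vertical axes from 0) of the 12 mitotic kinesins in each vehicle (grey, n = 3) and diclofenac (orange, n = 4) library, with mean and SD, ordered from the largest fall to the largest rise. In KIF20A all treated libraries (54.4 to 64.6) lie under the controls (79.0 to 85.3), while in KIF15 they lie above.

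The mitotic kinesins were also set beside all tested genes of like abundance. Most mitotic kinesins, 9 of 12, had a mean level between 6 and 8 on the log2 CPM scale. Of all 3433 tested genes in that band, 57.5% were called lower and 15.9% higher, with a median log2 fold change of -0.17. The 9 mitotic kinesins there had a median of -0.24, and the 7 transport kinesins of the same band a median of -0.11. The remaining mitotic kinesins, KIF15, KIFC1 and KIF18A, lay between 4 and 6, where 31.1% of 5110 genes were called higher and 35.0% lower. The more abundant a gene was, the lower its fold change tended to be, and the part of that trend in the kinesin values was not tested.

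The scaling decided several of these calls. With total counts alone in place of TMM factors the median of all tested genes moved up by 0.18 (log2), and 47.2% of genes were called higher and 16.5% lower. With upper-quartile factors the mitotic counts were 7 lower and 2 higher, against 22.8% and 38.2% of all tested genes. With total counts alone 3 mitotic kinesins were lower and 4 higher. KIF20A, KIFC1 and KIF22 kept their lower call at log2 fold changes of -0.29, -0.16 and -0.16 (edgeR adjusted p = 0.000241, 0.0463 and 0.00277). KIF11, KIF2C, KIF23 and KIF4A were no longer called, and KIF14 and KIF18B turned from slightly below 0 to 0.12 and were called higher. As a share of all counts the mitotic kinesins took 0.118% ± 0.00194 (SD, n = 3) under vehicle and 0.116% ± 0.000954 (SD, n = 4) under diclofenac.

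**Figure D3:**
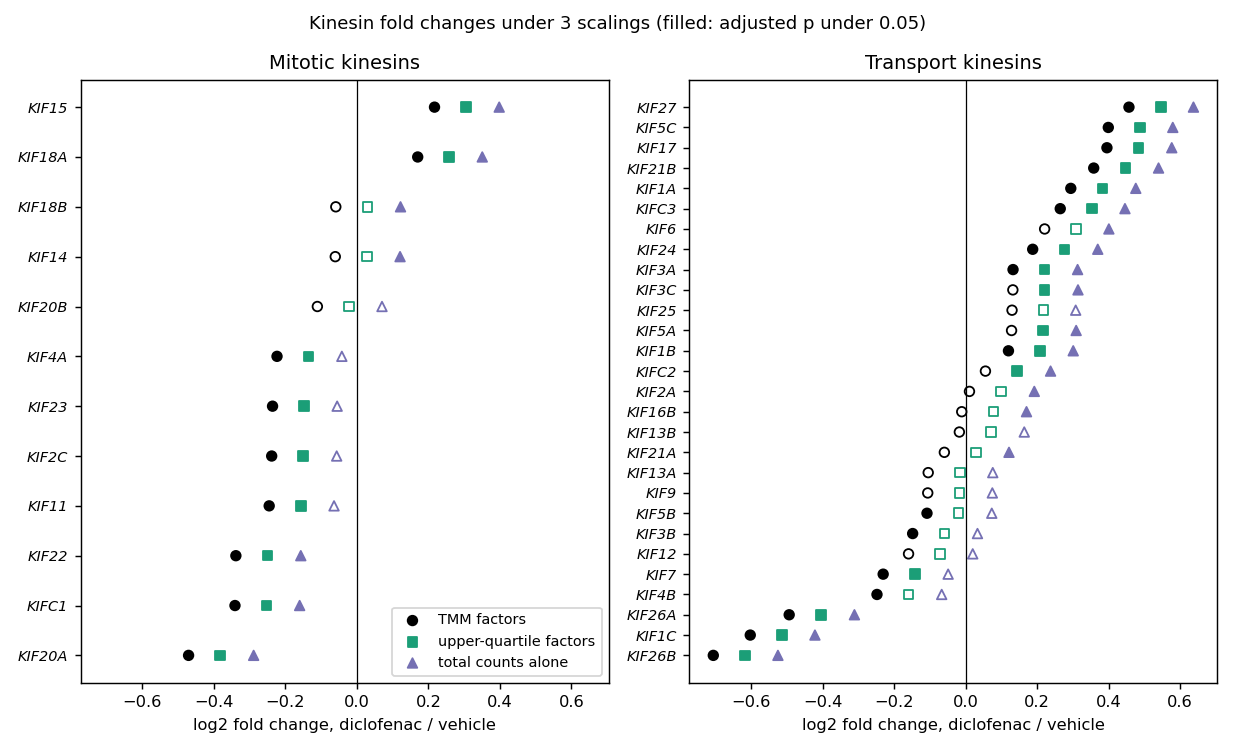
Log2 fold change of each tested kinesin under TMM factors (circles), upper-quartile factors (squares) and total counts alone (triangles), with filled symbols at adjusted p under 0.05. Each gene moves right by a near equal step, and KIF20A, KIFC1, KIF22, KIF26A, KIF26B and KIF1C remain filled and left of 0 under all 3.

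Where a word in the promoter was compared with the call, the CHR was found with both directions. It was present in 5 of the 7 mitotic kinesins that fell, in both that rose and in all 3 that were not called. KIF15 and KIF18A, shown above, carry the word 35 and 10 bases before the start. KIF20A, with the largest fall, carries none in the window.

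The transport kinesins had no common direction. Of 28 tested, 9 rose, 7 fell and 12 were not called, with a median log2 fold change of 0.03. These shares, 32.1% higher and 25% lower, were near the 30.2% and 29.5% of all tested genes. Without vehicle replicate 1 the falls numbered 4. The groups did not overlap in 14, against 58.5% of all tested genes, and of the 14, 8 had diclofenac above and 6 below. The falls reached further than the rises: KIF26B fell by 38.7% and KIF1C by 34.1%. As a share of all counts the transport kinesins took 0.142% ± 0.00510 (SD, n = 3) under vehicle and 0.151% ± 0.00297 (SD, n = 4) under diclofenac. On the scale of total counts alone 16 were higher and 3 lower, and the 3 were KIF1C, KIF26A and KIF26B. That scale had 47.2% of all tested genes higher and 16.5% lower.

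The motor with the smallest adjusted p was KIF1C, a fast carrier of vesicles, integrins and RNA. KIF1C stood at 299, 283 and 289 normalized CPM in the vehicle libraries and at 189, 181, 208 and 187 in the diclofenac libraries. No treated library came near a control, and the log2 fold change was -0.60 (SE 0.0498, edgeR adjusted p = 1.46e-08). Its relative KIF1A, known for carrying synaptic vesicle precursors in neurons, read 186, 161 and 159 under vehicle and 207, 209, 210 and 201 under diclofenac. KIF1A rose, with a log2 fold change of 0.29 (SE 0.0528, edgeR adjusted p = 0.000116). KIF1B, which carries mitochondria and vesicle precursors, stood at 92.4 ± 3.89 (SD, n = 3) and 100.5 ± 2.01 (SD, n = 4) normalized CPM, and its rise of 0.12 on the log2 scale (edgeR adjusted p = 0.0268) was lost in 4 of 7 fits that left out a library.

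The ratio of 2 paralogs within a library does not depend on the scaling. KIF1A gave 0.621, 0.571 and 0.548 counts per KIF1C count under vehicle and 1.09, 1.16, 1.01 and 1.07 under diclofenac. The ratio went from 0.580 ± 0.0370 (SD, n = 3) to 1.08 ± 0.0608 (SD, n = 4), a 1.87-fold change, and from KIF1C in excess to near equal counts. These counts are not corrected for exon length. Per kilobase of exon KIF1C remained ahead under diclofenac, at 22.3 ± 1.35 against 12.4 ± 0.254 normalized CPM per kb for KIF1A (SD, n = 4). KIF1B per KIF1C went from 0.318 ± 0.0128 to 0.527 ± 0.0397, a 1.66-fold change. Of 61 pairs of kinesins from the same family, 34 had ratios that did not overlap between the groups (55.7%), against 54.6% of all pairs of tested genes. In each of the 61 the kinesin with the higher log2 fold change was put on top, so the ratios were bound to lean upward.

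The remaining members of the same family of motors were not called. KIF13A, a carrier of recycling endosomes and melanosome cargo, had a log2 fold change of -0.10 (95% interval -0.23 to 0.02). KIF13B had -0.02 (-0.18 to 0.15), and KIF16B, which moves early endosomes, had -0.01 (-0.13 to 0.11). Their mean levels under vehicle were 25.5, 15.8 and 20.7 normalized CPM.

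Conventional kinesin, the main carrier of mitochondria and lysosomes, shifted in its heavy chains. KIF5B, the chain found in most tissues, stood at 222 ± 3.30 (SD, n = 3) and 206 ± 4.35 (SD, n = 4) normalized CPM. Its fall of 0.11 on the log2 scale (edgeR adjusted p = 0.0344) was 0.07 in the other direction with total counts alone. KIF5C, a chain found mainly in neurons, read 24.9, 21.1 and 26.4 under vehicle and 32.2, 30.8, 34.2 and 30.3 under diclofenac, all treated libraries being higher (log2 fold change 0.40, SE 0.0703, edgeR adjusted p = 9.48e-05). KIF5C per KIF5B went from 0.109 ± 0.0107 (SD, n = 3) to 0.155 ± 0.00688 (SD, n = 4), a 1.43-fold change. The third chain, KIF5A, also neuronal, had a log2 fold change of 0.13 (95% interval -0.02 to 0.28) and was not called. Beside these rises the summed level of the 8 neuronal markers was 150 to 160 CPM under vehicle and 140 to 152 CPM under diclofenac, nearly all of it NEFL. Of the 8, MAP2, SYN1, SNAP25 and STMN2 had a higher mean CPM under diclofenac and NEFL, TUBB3, RBFOX3 and DCX a lower one. Marker CPM is scaled by total counts alone, a scale on which 47.2% of all tested genes were called higher and 16.5% lower. The part of the neuronal markers in the result was not tested.

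The motors of cilia include KIF3A and KIF3B, which pair with the adaptor KIFAP3 to drive intraflagellar transport, and KIF17, which moves along cilia and dendrites. KIF3A rose to 61.7 ± 3.73 (SD, n = 4) from 56.3 ± 1.598 (SD, n = 3) normalized CPM with overlapping groups (log2 fold change 0.13, edgeR adjusted p = 0.0358), a call lost in 6 of 7 fits that left out a library. KIF3B fell to 90.5 ± 1.09 from 100.3 ± 4.29 normalized CPM (log2 fold change -0.15, edgeR adjusted p = 0.00731). With upper-quartile factors KIF3B had -0.06 (adjusted p = 0.242) and with total counts alone 0.03, so its call rested on the scaling. The ratio of this obligate pair, KIF3A per KIF3B, went from 0.562 ± 0.0123 (SD, n = 3) to 0.682 ± 0.0368 (SD, n = 4), with no overlap. KIF3C, another partner of KIF3A, had a log2 fold change of 0.13 (95% interval -0.00 to 0.27) and was not called. KIF17 read 8.002, 9.54 and 9.75 under vehicle and 12.7, 12.8, 11.1 and 11.2 under diclofenac (normalized CPM). The treated libraries of KIF17 were all higher, with a log2 fold change of 0.40 (SE 0.0916, edgeR adjusted p = 0.0012).

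KIF7 and KIF27 are the vertebrate counterparts of the fly Hedgehog regulator Costal2. KIF7 sits at the cilium tip and stood at 115 ± 8.41 (SD, n = 3) and 98.2 ± 5.42 (SD, n = 4) normalized CPM. It fell, with a log2 fold change of -0.23 (edgeR adjusted p = 0.00143), a call lost with total counts alone. KIF27 read 5.97, 4.04 and 4.47 under vehicle and 6.24, 6.71, 6.40 and 7.34 under diclofenac. Vehicle replicate 1 lay close under the treated libraries, and the log2 fold change was 0.46 (SE 0.124, edgeR adjusted p = 0.00415). Of the 50-base words in KIF27 exons, 26.7% also occur in other genes, so its counts are uncertain. Exons of KIF7 overlap those of TICRR on the opposite strand by 589 bases, and the sources used here do not say whether the counting used the strand.

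KIF21B, which pauses and stabilizes growing microtubules in neurons and T cells, read 7.72, 7.25 and 7.42 normalized CPM under vehicle and 10.0, 10.6, 8.64 and 9.11 under diclofenac. All treated libraries were higher (log2 fold change 0.36, SE 0.0927, edgeR adjusted p = 0.00285). Its paralog KIF21A, which curbs microtubule growth at the cell cortex, had a log2 fold change of -0.06 (95% interval -0.16 to 0.04) and was not called. KIF4B read 10.3, 8.91 and 9.92 under vehicle and 9.11, 8.21, 8.14 and 7.38 under diclofenac, with overlap (log2 fold change -0.25, SE 0.0911, edgeR adjusted p = 0.026, with 0.14 under upper-quartile factors and 0.558 under total counts alone). Its exons share 14% of their 50-base words with KIF4A, and KIF4A had 15.7 ± 1.52 (SD, n = 3) and 15.8 ± 1.47 (SD, n = 4) counts per KIF4B count. Reads of KIF4A could therefore be among the counts of KIF4B.

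The pair KIF26A and KIF26B, motors that bind microtubules but have lost ATPase activity, fell together. KIF26B read 6.42, 6.42 and 6.17 normalized CPM under vehicle and 4.32, 3.71, 3.67 and 3.89 under diclofenac. Every treated library was lower by a wide margin, with a log2 fold change of -0.71 (SE 0.105, edgeR adjusted p = 1.52e-05). KIF26A, which restrains GDNF and Ret signalling in mouse gut neurons, read 59.5, 51.9 and 47.9 under vehicle and 43.8, 35.1, 38.0 and 34.5 under diclofenac. It fell with a log2 fold change of -0.49 (SE 0.0778, edgeR adjusted p = 3e-05). The ratio KIF26A per KIF26B, 8.37 ± 0.796 (SD, n = 3) and 9.71 ± 0.686 (SD, n = 4), overlapped between the groups.

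**Figure D4:**
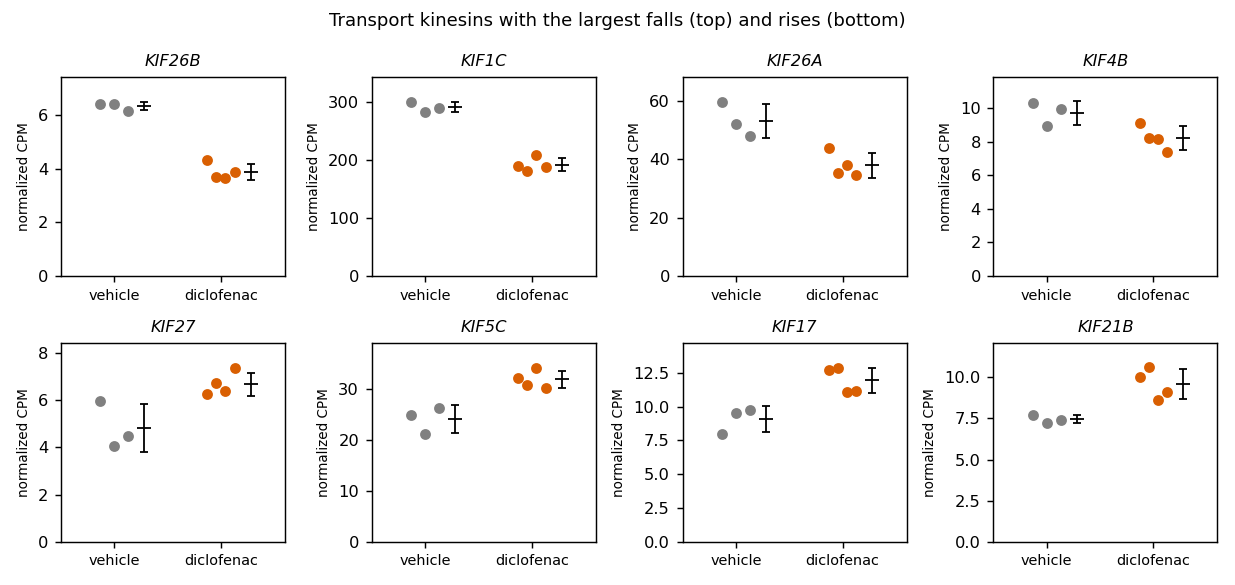
Normalized CPM (vertical axes from 0) of the 4 transport kinesins with the largest called falls (top row) and the 4 with the largest called rises (bottom row), by library, with mean and SD (vehicle grey, n = 3; diclofenac orange, n = 4). KIF1C lies between 283 and 299 in the controls and between 181 and 208 in the treated libraries, and the groups overlap only in KIF4B.

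Among the motors that move toward minus ends, KIFC3 rose while the mitotic KIFC1 fell. KIFC3, linked to cell junctions and Golgi position, stood at 10.9 ± 0.358 (SD, n = 3) and 13.1 ± 0.134 (SD, n = 4) normalized CPM (log2 fold change 0.26, edgeR adjusted p = 0.00384). KIFC3 per KIFC1 went from 0.541 ± 0.0170 to 0.826 ± 0.0416, a 1.53-fold change with no overlap. KIFC2 had a log2 fold change of 0.06 (95% interval -0.07 to 0.18) and was not called. KIF25, at 0.453 normalized CPM under vehicle, had an interval of -0.51 to 0.77, too wide to show a change of the size seen elsewhere in the family.

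Of the depolymerizing motors outside the mitotic group, KIF24 was called and KIF2A was not. KIF2A, which prunes microtubules in spindles and growing axons, stood at 103 ± 3.64 (SD, n = 3) and 104 ± 1.84 (SD, n = 4) normalized CPM, and its log2 fold change was 0.01 (95% interval -0.08 to 0.10). KIF2A per KIF2C went from 0.817 ± 0.0377 to 0.971 ± 0.0254, without overlap. KIF24, which sits on centrioles and restrains cilium formation, stood at 17.6 ± 0.884 and 20.1 ± 1.55 normalized CPM and was called higher (log2 fold change 0.19, edgeR adjusted p = 0.03).

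KIF9 and KIF6, known from motile cilia, and KIF12, an epithelial kinesin, were not called. Their log2 fold changes were -0.11 (95% interval -0.30 to 0.09), 0.22 (-0.07 to 0.52) and -0.16 (-0.66 to 0.34). KIF9-AS1, whose exons overlap those of KIF9 on the opposite strand by 870 bases, rose from 1.97 ± 0.371 (SD, n = 3) to 4.11 ± 0.478 (SD, n = 4) normalized CPM, a log2 fold change of 1.07 (SE 0.156, edgeR adjusted p = 1.22e-05). Without strand in the counting, reads of the pair cannot be told apart. The 8 ciliated cell markers summed to 12.4 to 13.7 CPM under vehicle and 18.1 to 19.8 CPM under diclofenac, and each of the 8 had a higher mean CPM under diclofenac, FOXJ1 having 12 and 64 counts in the groups. Marker CPM is scaled by total counts alone, and on that scale 47.2% of all tested genes were called higher and 16.5% lower. With TMM factors, all tested genes below 0 on the log2 CPM scale had a median log2 fold change of 0.41. Between 0 and 2 the median was 0.23. The part of the ciliated cell markers in the values of the cilium motors was not tested.

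**Figure D5:**
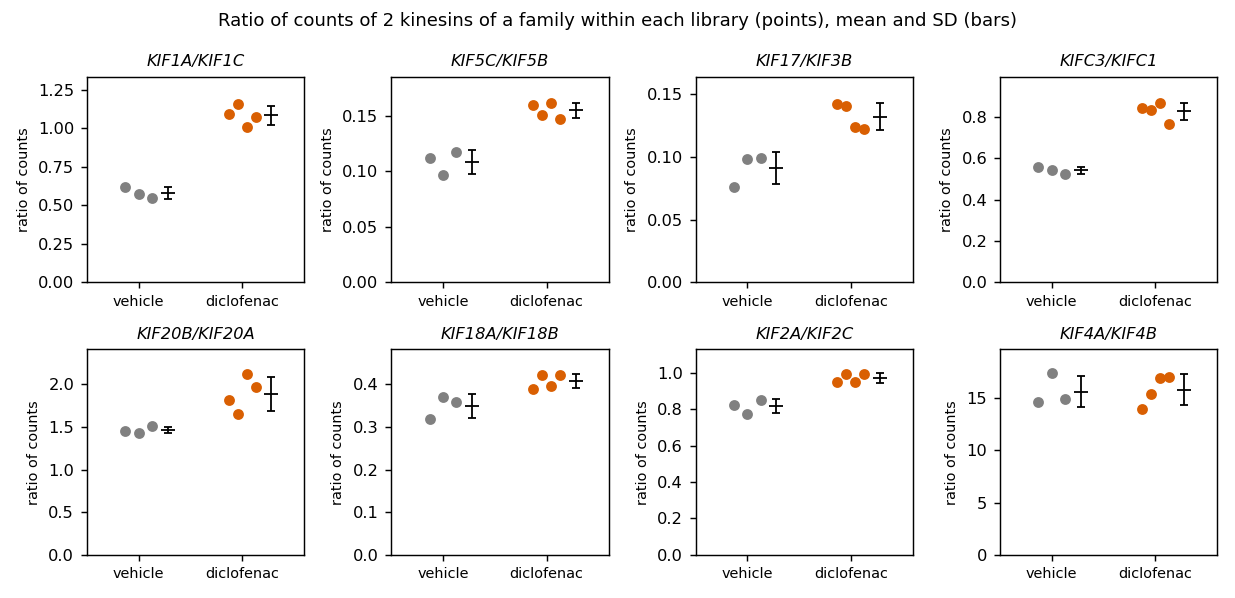
Counts of a kinesin per count of a relative in the same library (vertical axes from 0), for 8 pairs chosen after their values were seen, with mean and SD (vehicle grey, n = 3; diclofenac orange, n = 4). KIF1A per KIF1C moves from 0.580 to 1.08, while KIF4A per KIF4B stays at 15.7 and 15.8 with overlap.

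Ratios within the mitotic group restate the levels, since both come from the same counts. KIF20B per KIF20A went from 1.46 ± 0.0396 (SD, n = 3) to 1.89 ± 0.200 (SD, n = 4), and KIF18A per KIF18B from 0.350 ± 0.0273 to 0.408 ± 0.0170, both without overlap. KIF23 per KIF20A, 1.48 ± 0.0542 and 1.74 ± 0.201, overlapped.

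Per kilobase of exon, KIF11 was the most abundant kinesin under vehicle, at 48.0 ± 1.46 (SD, n = 3) normalized CPM per kb, followed by KIF22 at 45.02 ± 0.717 and KIF5B at 37.8 ± 0.561. KIF2C, KIF1C and KIF4A followed at 34.7 ± 1.13, 33.8 ± 0.974 and 33.3 ± 0.782, neighbours within their spread. The first 4 places were the same under diclofenac. KIF1C went from place 5 to 6 and KIF20A from 9 to 12, at 20.9 ± 0.809 and 15.04 ± 1.06 normalized CPM per kb. KIF1A, at 10.1 ± 0.896 and 12.4 ± 0.254, went from place 16 to 14. Exon lengths were those of GENCODE 29, since the annotation used by the authors is not given.

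No kinesin was called when the change had to exceed 1.5-fold, in an edgeR test against that bound which called 5.54% of all tested genes higher and 2.07% lower. The nearest were KIF26B and KIF1C, with adjusted p = 0.339 and 0.887. Of the 25 called kinesins, 12 were called in the same direction in each of 15 other fits without that bound. These were KIF20A, KIFC1 and KIF22 among the mitotic kinesins, KIF26B, KIF26A and KIF1C among the transport kinesins that fell, and KIF17, KIF21B, KIF5C, KIF1A, KIF27 and KIFC3 among those that rose.

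Several smaller calls did not hold when 1 library was left out, and for most of these any of several libraries sufficed. KIF18A lost its call when vehicle replicate 1 (edgeR adjusted p = 0.216), diclofenac replicate 2 (0.0693) or diclofenac replicate 4 (0.0864) was left out. KIF1B lost it without vehicle replicate 1 or 2 or diclofenac replicate 2 or 4, with adjusted p up to 0.168, and KIF3A without any library but diclofenac replicate 1, with adjusted p up to 0.161. For KIF4B this held of vehicle replicate 1 or 3 and diclofenac replicate 2 or 4 (adjusted p up to 0.105). For KIF24 it held of vehicle replicate 2 or 3 and diclofenac replicate 1 or 2 (up to 0.151), and for KIF5B of vehicle replicate 1 or 3 and diclofenac replicate 1, 2 or 4 (up to 0.0876). KIF3B had an adjusted p of 0.0513 without vehicle replicate 1. In the other direction KIF20B was called lower without vehicle replicate 1 (0.0253) or diclofenac replicate 3 (0.034) or 4 (0.0453), and KIF3C higher without diclofenac replicate 3 (0.0102).

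Some exons lie over those of a gene on the other strand. KIF20A overlaps BRD8 by 132 bases and CDC23 by 68, KIF4A overlaps PDZD11 by 77, KIF18A overlaps METTL15 by 61, and KIF24 overlaps UBAP1 by 143. If the counting ignored strand, reads from these stretches cannot be told apart.

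The transcripts of proteins that work with the mitotic kinesins moved mostly down. Of 20 spindle and midzone partners, 15 fell, 2 rose and 3 were not called, with a median log2 fold change of -0.26, where 29.5% of all tested genes were lower and 30.2% higher. Of the partners, 13 lay between 6 and 8 on the log2 CPM scale, the band in which 57.5% of all genes were called lower with a median of -0.17, and 11 of those 13 fell, with a median of -0.26. The chromosomal passenger complex, the cargo of KIF20A, fell in all 4 of its genes. INCENP, its scaffold, went from 151 ± 10.7 (SD, n = 3) to 88.5 ± 1.65 (SD, n = 4) normalized CPM (log2 fold change -0.77, edgeR adjusted p = 5e-10). The kinase AURKB went from 176 ± 6.52 to 121 ± 10.2 (log2 fold change -0.54, edgeR adjusted p = 2.33e-07), BIRC5 from 364 ± 14.1 to 275 ± 11.6 and CDCA8 from 106 ± 3.20 to 81.5 ± 2.18, and all 4 remained lower with total counts alone. PRC1, the midzone partner of KIF4A, had a log2 fold change of -0.32, and RACGAP1, the partner of KIF23, one of -0.22 (edgeR adjusted p = 6.71e-05 and 0.000174). With total counts alone PRC1 kept its call and RACGAP1, at -0.04 with an adjusted p of 0.449, did not. CIT, the citron kinase that binds KIF14, rose with a log2 fold change of 0.30 (edgeR adjusted p = 0.000118). PRC1, RACGAP1, CIT, BIRC5 and CDCA8 were chosen from the list after their values were seen. Scaled by total counts alone, 7 of the 20 fell and 4 rose, where 16.5% of all tested genes were lower and 47.2% higher.

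Light chains and cargo adaptors had no common direction: of 21, 7 rose and 7 fell (33.3% each), near the 30.2% and 29.5% of all tested genes, with a median log2 fold change of -0.04. FEZ1, an adaptor of conventional kinesin, went from 15.9 ± 1.82 (SD, n = 3) to 28.4 ± 2.35 (SD, n = 4) normalized CPM (log2 fold change 0.84, edgeR adjusted p = 8.09e-08). MAPK8IP2, a scaffold of the JIP group, went from 135 ± 9.69 to 91.7 ± 2.75 (log2 fold change -0.56, edgeR adjusted p = 3.92e-08).

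The motor of the opposite direction, cytoplasmic dynein with dynactin, was tested in 24 of 25 genes, of which 13 fell and 2 rose, with a median log2 fold change of -0.17. That is 54.2% lower and 8.33% higher, against 29.5% and 30.2% of all tested genes. Of the 24 genes, 12 lay in the same band between 6 and 8, and 9 of the 12 fell with a median of -0.19. All genes in that band were lower in 57.5%, with a median of -0.17. The dynactin subunit DCTN2 went from 203 ± 13.9 (SD, n = 3) to 158 ± 4.35 (SD, n = 4) normalized CPM (log2 fold change -0.36, edgeR adjusted p = 6.49e-06). The dynein light chain DYNLT3 went from 37.4 ± 1.79 to 49.2 ± 1.95 (log2 fold change 0.40, edgeR adjusted p = 3.73e-06). The direction of the median depended on the scaling. When total counts alone set the scale, 7 of the list rose, 5 fell and the median was 0.01. All tested genes were then 47.2% higher and 16.5% lower.

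Of 21 cilium transport genes, whose particles KIF3A and KIF3B haul, 6 rose and 2 fell, with a median log2 fold change of 0.07. That is 28.6% higher, slightly under the 30.2% of all tested genes, and 9.52% lower, against 29.5% of all. The falls numbered 1 without vehicle replicate 2 or diclofenac replicate 2. IFT80 went from 15.4 ± 0.474 (SD, n = 3) to 27.5 ± 0.612 (SD, n = 4) normalized CPM and IFT74 from 24.5 ± 1.81 to 34.8 ± 1.73 (log2 fold changes 0.84 and 0.51, edgeR adjusted p = 2.05e-09 and 1.71e-06). The counts were 19 and 0 with total counts alone, where 47.2% of all genes were higher and 16.5% lower. Of 12 microtubule end factors, 2 rose and 2 fell (16.7% each, against 30.2% and 29.5% of all tested genes), with a median log2 fold change of 0.01. The rises numbered 0 without vehicle replicate 2 or diclofenac replicate 4, and 1 without vehicle replicate 1 or diclofenac replicate 2 or 3. The end-binding protein MAPRE2 went from 127 ± 1.55 (SD, n = 3) to 108 ± 5.67 (SD, n = 4) normalized CPM (log2 fold change -0.23, edgeR adjusted p = 0.000389), and with total counts alone it was not called.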

How the data were processed

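RNA sequencing counts of 3 vehicle and 4 diclofenac libraries were used. The deposited values are raw counts per gene, whole numbers with no normalization, in 1 table with a column per library. DESeq (version not given) and GRCm38, a mouse build, stand in the submitters' processing notes, while the rows carry human symbols, so no coordinates were taken from the counts. Aligner, counter and annotation are not given in the sources used here. Per the labels, libraries were made with a directional kit.

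Genes were kept by edgeR's filterByExpr (minimum count 10, minimum total 15), which left 18311 genes holding 99.9% of the counts. Library sizes were scaled with TMM and groups compared with edgeR 4.0.16 (glmQLFit, glmQLFTest) in R 4.3.3, with Benjamini-Hochberg adjustment over all tested genes. Standard errors are the log2 fold change over the square root of F. Alternatives were DESeq2 size factors, upper-quartile factors, total counts alone, DESeq2 1.42.0, limma 3.58.1 with trend, no filter, a stricter filter (1 CPM), a replicate block, a minimum change of 1.5-fold and each library left out. Code was tested on simulated data.

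The family, its groups, the lists of partners and markers and the promoter words were chosen with earlier results of these data known. All mitotic kinesins and every tested transport kinesin are named, with values per library for mitotic kinesins and for the 4 largest called rises and falls, and the 2 called partners with the largest change per list. One partner gene under that rule is not reported here. Counting error alone came to 29.6% of the standard error for KIF1C and 97.3% for KIF26B, and weighs most in kinesins with few counts. Libraries of a group differed by more than counting noise, so none was a repeat deposit. Promoter sequences are from RefSeq (GRCh38.p14) and shared words and exon lengths from GENCODE 29.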

Additional observations from a re-analysis of the deposited data

Results flagged for a closer look

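KIF4A in diclofenac replicate 3 stood apart from its group, at 137.9 normalized CPM against 126 to 127 in the other diclofenac libraries. All 40 tested kinesins were examined in this way and 1 was found in the diclofenac group of 4 libraries, where chance gives about 1 in 20 groups. Without that library the log2 fold change of KIF4A was -0.25, against -0.22 with it.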

How the results depend on the processing

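With upper-quartile factors the mitotic median was -0.14, and 4 transport kinesins were lower with a median of 0.12. The medians of the partner lists were then 0.043 for light chains and adaptors, -0.17 for spindle and midzone partners, -0.079 for dynein and dynactin (5 higher, 8 lower), 0.16 for cilium transport (13 higher, 1 lower) and 0.095 for microtubule end factors (5 higher). With total counts alone 4 mitotic kinesins were higher and 3 lower (median -0.048), 16 transport kinesins higher and 3 lower (median 0.22), and 8635 genes in all higher and 3029 lower. The partner lists then had 2 lower light chains and adaptors (median 0.14), 4 higher and 7 lower spindle partners (-0.075), 7 higher and 5 lower dynein and dynactin genes (0.013), 19 higher and 0 lower cilium genes (0.25), and 9 higher and 1 lower end factors (0.19).

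The log2 fold change changed sign in these cases, among which KIF5B and KIF3B had been called. With upper-quartile factors it was 0.028 for KIF14, 0.072 for KIF13B, 0.029 for KIF21A, 0.030 for KIF18B and 0.078 for KIF16B. With total counts alone it was 0.12 for KIF14, 0.075 for KIF9, 0.076 for KIF13A, 0.16 for KIF13B, 0.020 for KIF12, 0.073 for KIF5B, 0.070 for KIF20B, 0.12 for KIF21A, 0.12 for KIF18B, 0.17 for KIF16B and 0.033 for KIF3B. With no filter KIF2A had -0.013. With a stricter filter KIF13B had 0.0091 and KIF16B 0.016.

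DESeq2's Wald test and the fit with no filter each left 1 mitotic kinesin higher and 0 end factors higher, and DESeq2 size factors left 1 end factor higher. With no filter the transport median was -0.013 and the spindle partner median -0.28. A stricter filter gave medians of -0.23 for spindle partners, -0.14 for dynein and dynactin and 0.10 for cilium transport. Against a minimum change of 1.5-fold, 0 kinesins of either group were called in either direction, nor were dynein, dynactin or end factors (0). Then 1 adaptor and 1 cilium gene were higher with 0 lower, 1 spindle partner was lower with 0 higher, and 1015 genes in all were higher and 379 lower. For all of these the cause was not tested.

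The replicate numbers gave no sign of pairing the libraries: same-numbered deviations correlated at 0.00087, 0.022 and -0.047. Such correlations cannot exclude a weak pairing. In the fit with the replicate block 1 mitotic kinesin was higher and 8 lower, 7 transport kinesins were higher and 5 lower, and 0 end factors were higher. Diclofenac replicate 4 has no vehicle library of its number, so it added nothing to the fold changes of that fit. KIF13B had 0.022 and KIF16B 0.0050 in that block fit.

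When each library was left out in turn, the mitotic counts ran from 1 to 2 higher and 7 to 8 lower (median -0.24 to -0.20) and the transport counts from 6 to 9 higher and 4 to 7 lower (median 0.011 to 0.075). The spindle partner median ran from -0.26 to -0.24 and that of dynein and dynactin from -0.17 to -0.12. Lower cilium genes ran from 1 to 2, and higher end factors from 0 to 2 with a median from -0.030 to 0.033. The log2 fold change ran from -0.011 to 0.033 for KIF2A, from -0.10 to 0.039 for KIF13B and from -0.024 to 0.0083 for KIF16B. With limma all 40 tested kinesins had the same call and direction. Depth limits KIF25, KIF12 and KIF6, whose intervals are the widest.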
